A study of Mus musculus with 10 samples.

Results

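Kainate receptors are 1 of the 3 main classes of ionotropic glutamate receptor, and 5 genes, Grik1 to Grik5, encode their subunits. All 5 were measured here, each by a single probe set that the platform annotation assigns to that gene alone, among 19938 genes with a value. Whole-brain RNA came from 5 transgenic mice (Tg), which carry extra Glo1 on a bacterial artificial chromosome and overexpress it, and from 5 wild-type littermates (WT). All 10 mice were adult males of C57Bl/6J background that had received no treatment, and each was hybridised to its own single-channel Affymetrix mouse gene array. The labels call the mice of a group biological replicates; they give neither the copy number of the transgene nor the cell types that express it.

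A kainate receptor is a tetramer that opens a cation channel when it binds glutamate. GluK1, GluK2 and GluK3, the products of Grik1, Grik2 and Grik3, form working channels by themselves. GluK4 and GluK5, from Grik4 and Grik5, bind agonist with higher affinity and need 1 of the other 3 to form a channel. In brain these receptors act on both sides of the synapse: they carry slow synaptic currents, as at hippocampal mossy fibres, and they tune the release of glutamate and GABA.

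The transgene was seen on every Tg array: on probe set 10449644 Glo1 read 11.79 to 12.10 log2 units in Tg and 10.24 to 10.63 in WT, a 2.84-fold difference (limma adjusted p = 1.53e-05). Array medians lay between 7.95 and 8.05 log2 units. Of all arrays, WT replicate 2 was least like the rest (its mean r with them was 0.992, and 0.994 to 0.997 for the other 9). It lay outside the range of the other 9 arrays for 51.2% of probe sets, where for any other array this share was 8.3% to 29.4%. Its cerebellar markers were low and its pituitary markers high; Tg replicate 2 had high pituitary markers too. Results are therefore given with and without WT replicate 2, and for the subunits and some partners also without both arrays. In whole brain, fewer cells of a type and less RNA per cell cannot be told apart.

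The stretches just upstream of the annotated transcription starts are shown so that the subunit genes can be compared by sequence. RefSeq (GRCm38.p6) gave them for 4 of the 5 genes, and the 100 bases before each start are printed 5′ to 3′ on the gene's strand. Capitals mark GC boxes, the letters GGGCGG on either strand, a motif bound by Sp1-type factors.

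Grik2, chr10:49788755-49788854, minus strand: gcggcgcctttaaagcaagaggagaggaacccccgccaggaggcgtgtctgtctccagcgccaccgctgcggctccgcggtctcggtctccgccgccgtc

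Grik5, chr7:25072370-25072469, minus strand: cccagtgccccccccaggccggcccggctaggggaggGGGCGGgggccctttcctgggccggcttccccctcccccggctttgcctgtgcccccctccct

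Grik3, chr4:125490596-125490695, plus strand: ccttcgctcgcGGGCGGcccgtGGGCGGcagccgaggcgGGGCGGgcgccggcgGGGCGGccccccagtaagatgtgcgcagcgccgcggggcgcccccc

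Grik4, chr9:42944372-42944471, minus strand: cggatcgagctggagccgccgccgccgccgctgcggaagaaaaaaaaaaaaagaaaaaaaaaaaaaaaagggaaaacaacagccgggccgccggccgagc

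The Grik3 window held 4 GC boxes and the Grik5 window 1, while the Grik2 and Grik4 windows held 0. Of 32851 windows of the same length before RefSeq starts, 24.7% held a GC box. None of the 4 windows held the letters TATAAA on either strand, which 5.56% of all windows hold. G and C made up 86% of the Grik3 window, 80% of the Grik5 window, 71% of the Grik2 window and 55% of the Grik4 window, against a median of 55% over all windows. These letter matches describe the windows and were not set against the array values by any test.

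By brightness on the array, the subunits ran Grik2, Grik5, Grik3, Grik4 and Grik1, from highest to lowest, in both genotypes. Brightness depends on the probes of a set as well as on the RNA, so this order is that of array signal and not of molecules. Grik2 and Grik5 lay near the top of the table, at a median percentile of 93.2 and 92.0 among the 28944 probe sets. Grik3 lay at 85.0, Grik4 at 76.1 and Grik1 at 57.6, so that Grik1 was the 1 subunit close to the middle of all probe sets.

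The order held on 8 of the 10 arrays. On the other 2, Tg replicate 2 and WT replicate 2, Grik5 was above Grik2 and the rest of the order was the same. Grik2 exceeded Grik5 by 0.11 ± 0.14 log2 units in Tg and by 0.082 ± 0.32 in WT (mean of the gap within arrays, SD, n = 5 each), so these neighbours did not differ beyond their spread. On the 4 WT arrays other than replicate 2 the gap was 0.22 ± 0.017 (SD, n = 4). The 3 lower steps were wider than the spread on every array. Grik5 exceeded Grik3 by 0.63 to 0.81 log2 units, Grik3 exceeded Grik4 by 0.55 to 0.79, and Grik4 exceeded Grik1 by 1.06 to 1.40.

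**Figure D1:**
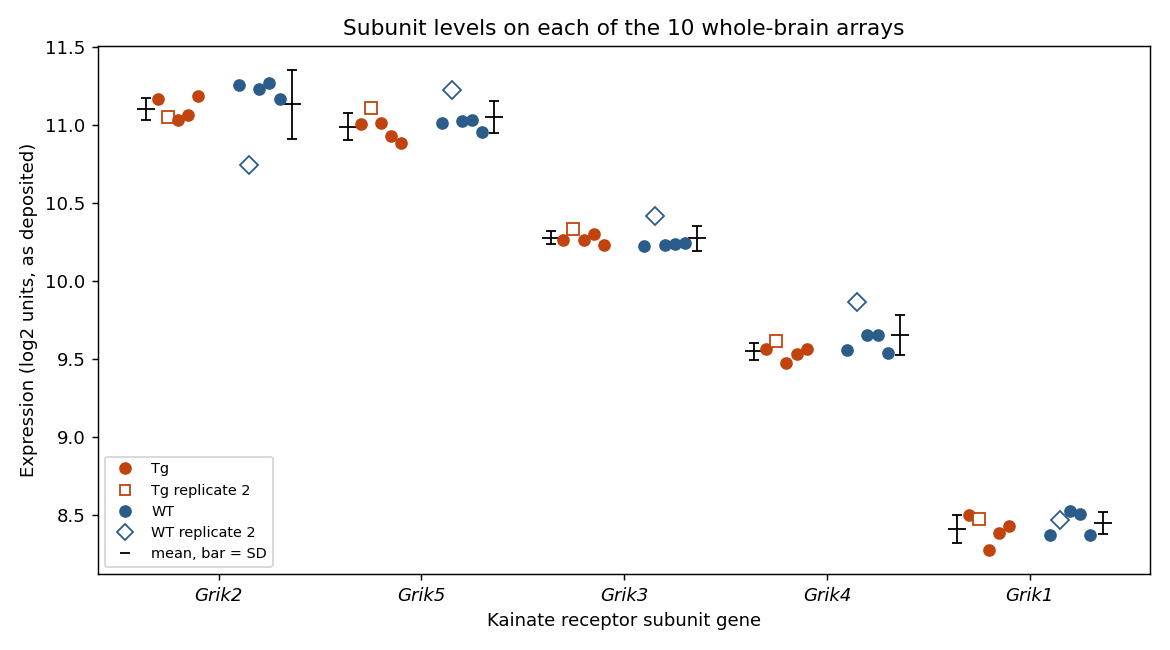
Log2 expression of the 5 subunit genes (vertical axis) on each of the 10 arrays, with Tg left of WT for each gene and with the mean and SD of each group beside its points. WT replicate 2 (open diamond) is the lowest WT point for Grik2 (10.75) and the highest for Grik3, Grik4 and Grik5, while for Grik1 it lies among the others; Tg replicate 2 is the open square.

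The comparison of genotypes asked whether kainate receptor transcripts differed in brains that overexpress Glo1. None of the 5 subunits passed the threshold of 0.05 after Benjamini-Hochberg adjustment over all probe sets, a threshold that 0.0345% of the 28944 probe sets passed in either direction (limma). At an unadjusted p under 0.05 the count was also 0, where 2.21% of probe sets passed. All 5 subunits had overlapping groups; Tg and WT did not overlap for 0.46% of probe sets. The estimated differences ran from -0.11 log2 units for Grik4 to 0.0055 for Grik3. The median over the 5 was -0.036, beside -0.0034 over all genes, and 4 of the 5 were below 0, as were 52.8% of all genes.

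Grik2 encodes GluK2, the principal pore-forming subunit of many brain kainate receptors, and is known for its expression in hippocampus and in cerebellar granule cells. Its level in Tg brain was 11.17, 11.05, 11.04, 11.07 and 11.19 log2 units in replicates 1 to 5. In WT brain it was 11.26, 10.75, 11.23, 11.27 and 11.17. The Tg values lay within the WT range, which WT replicate 2 widened downward, and of the other 4 WT values, 3 lay above the highest Tg value and 1, WT replicate 5, just below the highest 2. The mean was 11.10 ± 0.071 in Tg and 11.13 ± 0.22 in WT (SD, n = 5 each), a difference of -0.031 (95% interval -0.23 to 0.17, limma adjusted p = 0.9998). Tg brain thus measured 0.979 times the WT level, with an interval from 0.851 to 1.126.

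Without WT replicate 2 the Grik2 difference was -0.13 log2 units (95% interval -0.23 to -0.028), a larger difference than with all arrays. Tg brain then held 91.5% of the WT level (85.4% to 98.1%). The unadjusted p was 0.0170 and the limma adjusted p 0.407, so it did not pass; 0 of the 5 subunits did in that fit, as against 0.038% of all probe sets, and the two-sided exact permutation p was 0.0476. The smallest p that 5 against 4 arrays allow is 0.0159. Grik2 was the 1 subunit of 5 lower at an unadjusted p under 0.05 in that fit, in which 3.95% of all probe sets were, and the other 4 subunits did not reach that p in either direction, which 11% of all probe sets did. Without that array Tg replicate 5 (11.19) and Tg replicate 1 (11.17) still overlapped WT replicate 5 (11.17). Without both second replicates the difference was -0.12 (-0.22 to -0.0086, limma adjusted p = 0.498). In that last fit Grik1 differed by -0.0465, Grik3 by 0.0281, Grik4 by -0.0684 and Grik5 by -0.0485.

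Marker lists of brain regions were set beside the Grik2 values. With WT replicate 2 left out, 8 of the 10 granule cell markers had lower Tg means, as did 46.7% of all genes. Of these markers 6 were lower at an unadjusted p under 0.05, a count to be read against the 3.95% of all probe sets, and 0 passed after adjustment (limma). The mean of the list was 10.37 to 10.51 log2 units on the Tg arrays and 10.54 to 10.64 on the 4 WT arrays, a difference of -0.16. All 6 measured Purkinje cell markers had lower Tg means, 4 of them at an unadjusted p under 0.05, with a mean difference of -0.14. All 7 measured striatal markers had lower Tg means too, 1 of them at that p, with a smaller mean difference of -0.054. The mean difference was 0.0155 for the cortical list, 0.0169 for the hippocampal, 0.0193 for the interneuron and 0.0303 for the microglial list. For the general neuronal, astrocyte and oligodendrocyte lists it was -0.00836, -0.00315 and -0.0206. After adjustment 0 markers of these lists passed. With the granule cell mean of each array as a covariate and all 10 arrays in the fit, the Grik2 difference was -0.090 (limma adjusted p = 0.645). That mean was 8.58 on WT replicate 2 and 10.37 to 10.64 on the other arrays, so the adjustment rested largely on WT replicate 2. The fit therefore cannot show what difference remains at equal granule cell content. The part of these markers in the Grik2 values was not tested further.

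Grik1 encodes GluK1, a subunit known from interneurons and sensory neurons and a target, like GluK2, of RNA editing in the pore. It read 8.50, 8.48, 8.28, 8.39 and 8.43 log2 units in Tg and 8.37, 8.47, 8.53, 8.51 and 8.38 in WT. The groups overlapped over most of their ranges, and the lowest value of all belonged to Tg replicate 3. The difference was -0.036 (95% interval -0.15 to 0.082, limma adjusted p = 0.9998), and -0.031 without WT replicate 2. Grik1 was the 1 subunit for which this array lay within the range of the other 9.

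Grik3 encodes GluK3, a subunit of low sensitivity to glutamate that also acts presynaptically. Tg brains read 10.26, 10.34, 10.26, 10.31 and 10.23 log2 units. WT brains read 10.23, 10.42, 10.24, 10.24 and 10.25. The 4 WT arrays other than replicate 2 spanned 10.23 to 10.25 with an SD of 0.0086, the tightest of any subunit in either group, and WT replicate 2 lay above them all. The difference was 0.0055 (95% interval -0.098 to 0.11, limma adjusted p = 0.9998). It was 0.042 (-0.036 to 0.12, limma adjusted p = 0.637) without WT replicate 2.

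Grik4 encodes GluK4, a high-affinity subunit known for its expression in the CA3 field of the hippocampus. It read 9.57, 9.62, 9.47, 9.53 and 9.57 log2 units in Tg and 9.56, 9.87, 9.66, 9.66 and 9.54 in WT. The WT group reached higher, through WT replicate 2 above all, and its lower values fell among the Tg ones. Grik4 had the widest mean difference of the 5 subunits, -0.11 (95% interval -0.24 to 0.030), with an unadjusted p of 0.115, a limma adjusted p of 0.9998 and a two-sided exact permutation p of 0.103. Without WT replicate 2 it was -0.052 (-0.15 to 0.045, limma adjusted p = 0.637), less than 1 SD (0.064) of the 4 WT values left.

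Grik5 encodes GluK5, the high-affinity subunit that is expressed widely in brain and stays inside the cell unless it assembles with GluK1, GluK2 or GluK3. Its Tg values were 11.00, 11.11, 11.02, 10.93 and 10.88 log2 units. Its WT values were 11.01, 11.23, 11.02, 11.04 and 10.96. Replicate 2 was the highest of each group, and apart from these arrays the values lay between 10.88 and 11.04. The difference was -0.063 (95% interval -0.19 to 0.068, limma adjusted p = 0.9998), and -0.018 (-0.13 to 0.089) without WT replicate 2.

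**Figure D2:**
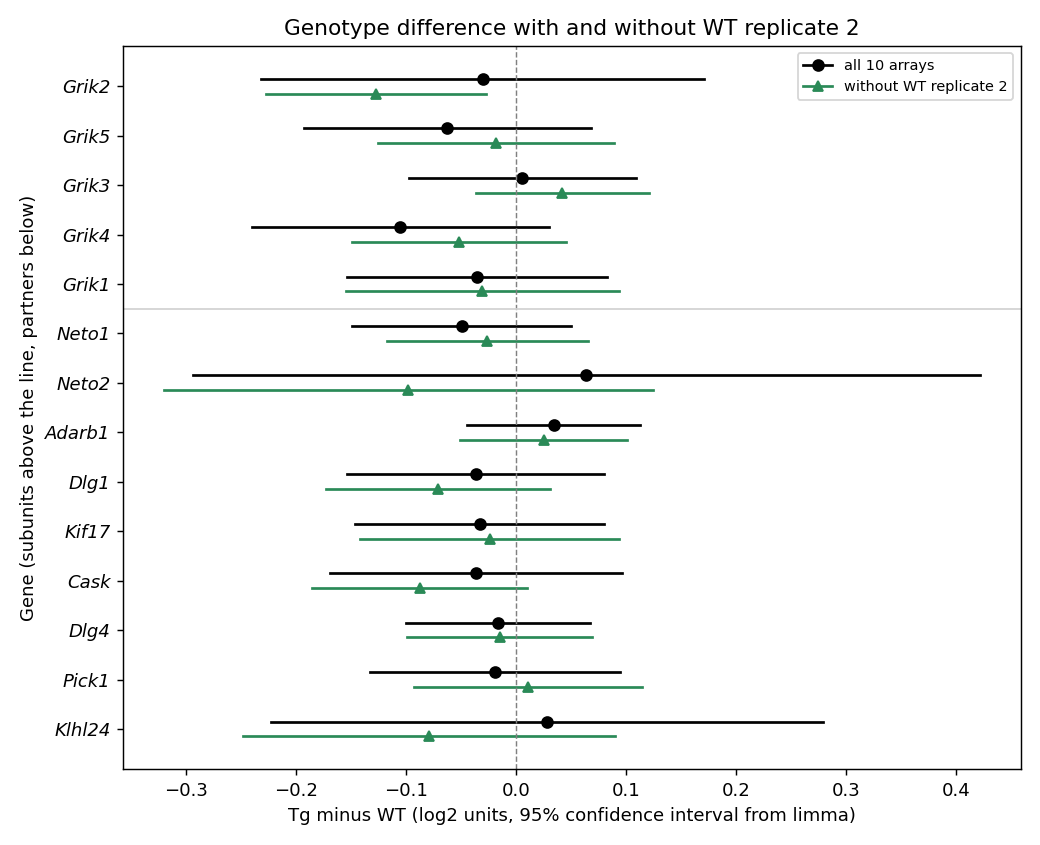
Difference of Tg minus WT on the log2 scale and its 95% confidence interval (horizontal axis) for the 5 subunits and 9 partner genes, with all 10 arrays (black circles) and without WT replicate 2 (green triangles). Of the intervals shown, only that of Grik2 without WT replicate 2 (-0.23 to -0.028) leaves out 0, and it did not pass after adjustment; Neto2 has the widest intervals.

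WT replicate 2 differed from the other 4 WT arrays in the balance of the subunits. Grik2 read 10.75 log2 units there against 11.17 to 11.27 on the other WT arrays, a difference of -0.49 from their mean, or a 1.40-fold lower level. Grik4 was 0.27 higher on it (9.87 against 9.54 to 9.66), Grik5 0.22 higher (11.23 against 10.96 to 11.04) and Grik3 0.18 higher (10.42 against 10.23 to 10.25). Grik1 differed by 0.023. With each array centred on its median the deviations of Grik3 and Grik5 were 0.099 and 0.14, and that of Grik1 turned to -0.061; Grik2 was still lower (-0.57) and Grik4 higher (0.18). On the deposited scale 4 of the 5 subunits lay outside the range of the other 9 arrays, as did 51.2% of all probe sets; the count is to be read against that share. The deviation of Grik2 was wider than that of 95% of probe sets. For Grik4, Grik5, Grik3 and Grik1 the corresponding shares were 72.3%, 63.2%, 54.4% and 8.08%.

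Markers of brain regions gave the context of that array. Of 10 granule cell markers 8 lay below all 9 other arrays, and the list mean was 8.58 log2 units there, against 10.37 to 10.51 on the Tg arrays and 10.54 to 10.64 on the other WT arrays. Gabra6, a GABA-A receptor subunit of granule cells, read 6.03 against 11.16 to 11.29 on the other WT arrays, and Cbln3, a granule cell cerebellin, 7.34 against 11.25 to 11.58. All 6 Purkinje cell markers lay below the other 9 arrays as well, with a list mean of 8.47 against 10.27 to 10.40 on the other WT arrays. Ppp1r17 read 5.89 and Car8, a carbonic anhydrase-related protein, 8.59.

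On the deposited scale most forebrain markers and all microglial markers were higher on WT replicate 2, by smaller amounts. Centring each array on its median moved the deviation of Grik1 there from 0.023 to -0.061 and that of Grik3 from 0.18 to 0.099. The marker lists were not centred in this way, so small shifts of a list, and counts of members higher, may depend on the scale. The striatal list averaged 10.86 on WT replicate 2 and 10.69 to 10.72 on the other WT arrays, with the dopamine receptors Drd1 and Drd2 farthest, at 0.35 and 0.34 above them; 5 of its 7 members were higher, and Tac1 was 0.21 lower. The hippocampal list was 0.11 higher, with Lct and Spink8 farthest, but 2 of its 10 members, Prox1 and Zbtb20, were lower (-0.27 and -0.17). The cortical list was 0.098 higher, with Lamp5 and Cux2 farthest and 7 of 8 members higher, Neurod2 being lower (-0.19). Tac1, Prox1, Zbtb20 and Neurod2 were named after their values were seen. The microglial list was 0.17 higher, with all 6 members higher and Tmem119 and C1qa farthest. The interneuron list differed by -0.0018, with 5 of its 8 members higher and 3 lower, and with Pvalb and Npy farthest. General neuronal markers differed by -0.047, astrocyte markers by -0.084 and oligodendrocyte markers by 0.012. Of the pituitary markers, all 5 measured lay above the 9 other arrays, with a list mean of 10.71 against 6.85 to 7.01 on the other WT arrays. Tg replicate 2 reached 10.28 on that list, while its granule cell mean, 10.51, was the highest of the Tg arrays.

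**Figure D3:**
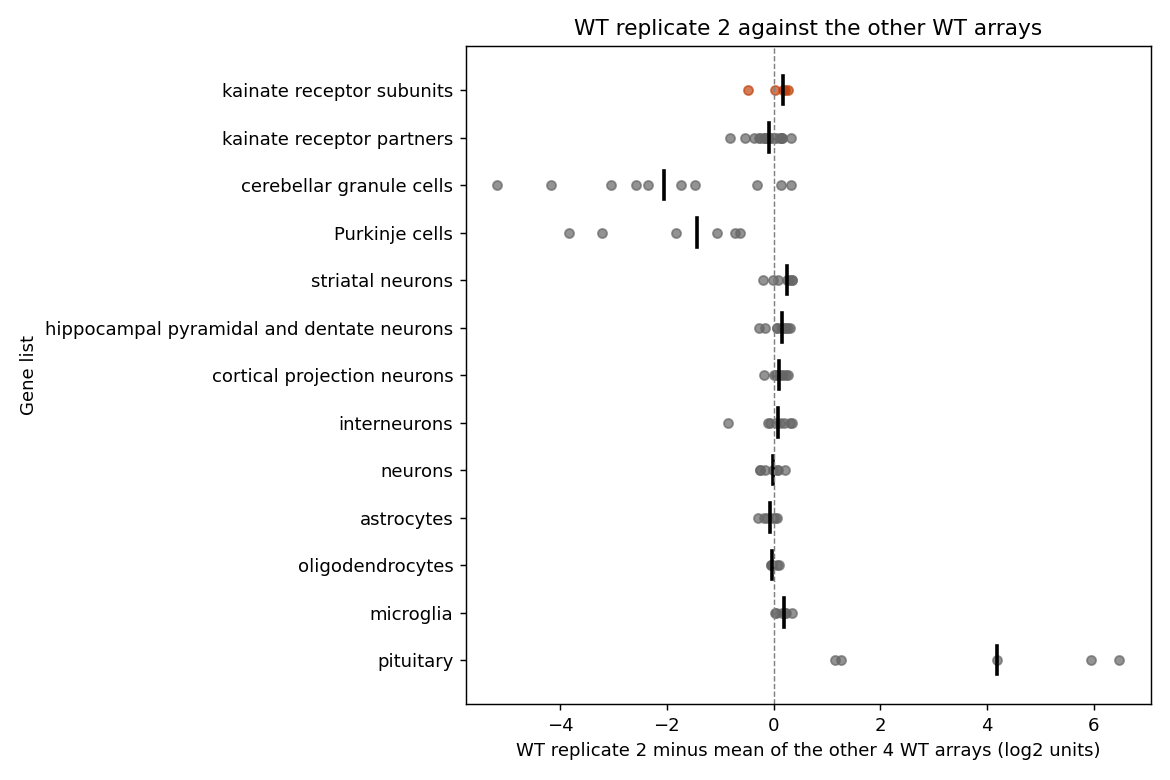
WT replicate 2 minus the mean of the other 4 WT arrays in log2 units (horizontal axis) for each gene (points) of each list (rows), with the list median as a black bar. All 6 Purkinje cell markers and 8 of the 10 granule cell markers lie left of 0 (Slc17a7 at 0.32 and Barhl1 at 0.14 do not), all 5 pituitary markers lie right of 0, and the subunits lie between -0.49 and 0.27.

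Grik3, Grik4 and Grik5 were each highest on replicate 2 in both genotypes. On Tg replicate 2 Grik5 was 0.15 log2 units above the mean of the other Tg arrays, Grik4 0.081 and Grik3 0.070, while Grik2 was 0.066 below it. These shifts of Grik2, Grik3, Grik4 and Grik5 ran the same way as those of WT replicate 2 and were smaller. Grik1 was 0.078 above the mean of the other Tg arrays, a larger shift than its 0.023 on WT replicate 2. High pituitary markers were common to both arrays and low cerebellar markers were not. Whether either tissue difference set these levels was not tested.

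**Figure D4:**
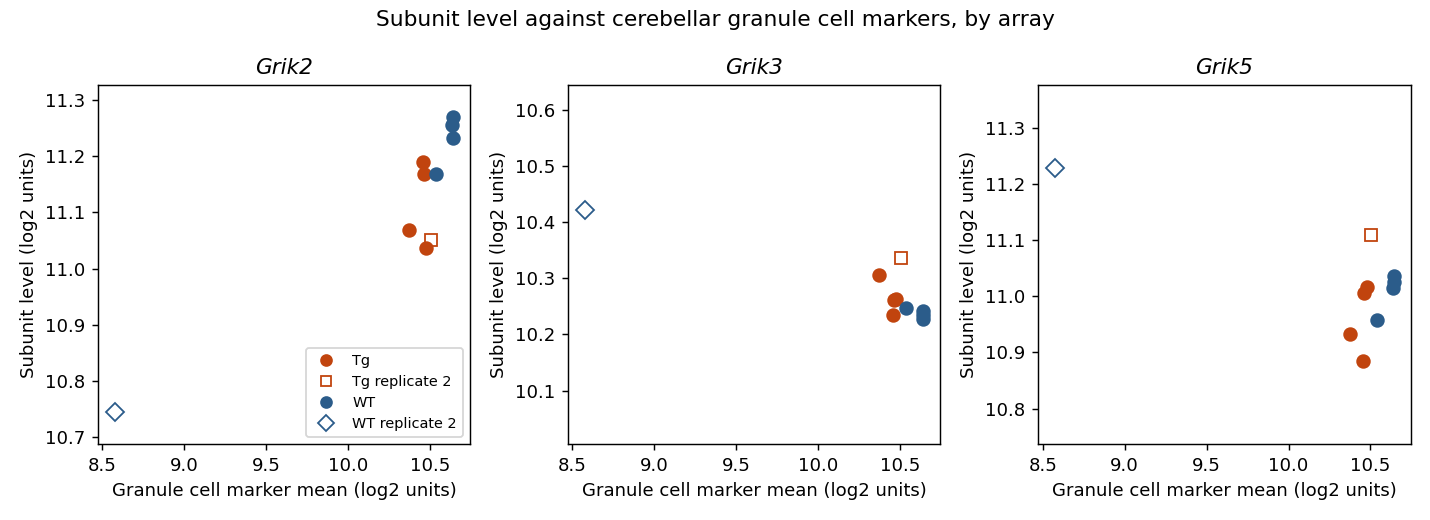
Level of Grik2, Grik3 and Grik5 (vertical axes, log2 units, equal spans) against the mean of the 10 granule cell markers (horizontal axis, log2 units) on each array. WT replicate 2 stands alone at a marker mean of 8.58, with low Grik2 and high Grik3 and Grik5. The other 9 arrays lie between 10.37 and 10.64, and among them the 5 Tg arrays (orange) sit left of the 4 WT arrays (blue). With and without WT replicate 2, Pearson r was 0.894 and 0.749 for Grik2 and -0.862 and -0.553 for Grik3. For Grik5 it was -0.713 and 0.461, and for Grik4, not drawn, -0.797 and 0.622.

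Among the 9 arrays other than WT replicate 2, the 10 pairs of subunits were compared for shared variation between animals. Grik1 and Grik4 rose and fell together (Pearson r = 0.896, exact permutation p = 0.00149, 0.0149 adjusted over the 10 pairs; Spearman rho = 0.867, exact p = 0.00451, adjusted 0.0451). Without the 2 arrays farthest from the Grik1 median r was 0.757, and within the Tg group alone it was 0.894. With WT replicate 2 included it was 0.599. Grik2 and Grik3 ran opposite ways (r = -0.795, exact permutation p = 0.0120, adjusted 0.0598; rho = -0.817, exact p = 0.0108, adjusted 0.0538) and did not pass. Their r was -0.882 without the 2 arrays farthest from the Grik2 median, -0.690 within the Tg group alone and -0.937 with WT replicate 2 included. The other 8 pairs did not pass either. All values of an array share its tissue piece, RNA and hybridisation. The permutation test cannot tell variation shared in this way from a tie between 2 genes, and the share of all gene pairs with so high an r was not counted. For Grik1 over these 9 arrays, Surf6 (r = 0.881) ranked 3 in likeness among 12908 other genes.

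The genes whose pattern over the 10 arrays was most like each subunit were listed from the 12908 other genes of higher signal, those in the upper 60% of probe sets. For Grik2 they were Galnt13, a glycosyltransferase (r = 0.988), Vat1l (0.982) and Tmem266 (0.980), and these stayed at 0.977, 0.958 and 0.934 without WT replicate 2. For Grik5 they were Ppp1r1a, a protein phosphatase inhibitor (0.984, and 0.975 without that array), B4galnt4 (0.980 and 0.953) and Coro7, a coronin (0.974 and 0.944). For Grik3 they were Tppp, a tubulin-binding protein (0.967 and 0.897), Pde4a, a cAMP phosphodiesterase (0.961 and 0.903), and Ptp4a3, a tyrosine phosphatase (0.952 and 0.848). Grik4 was closest to Fam161a (0.948 and 0.871), Sec24d, a vesicle coat protein (0.946 and 0.792), and Vstm2b (0.943 and 0.768). Grik1 had no gene above 0.9, and its closest were Surf6 (0.884 and 0.881), Ccnj, a cyclin (0.864 and 0.861), and Gdap10 (0.853 and 0.848). Over the 10 arrays, 255 genes exceeded 0.9 with Grik2, 135 with Grik5, 86 with Grik3 and 42 with Grik4. These counts include WT replicate 2, on which those subunits lay outside the range of the other 9 arrays and Grik1 did not. Genes above 0.9 were not counted without that array. Without it, the genes named for Grik4 ranked 31, 133 and 198 in likeness. As the highest of many, the r values given are a description and carry no test.

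Genes for proteins that accompany, anchor, move, edit or turn over kainate receptors, or load glutamate into vesicles, were examined as a list of 21 genes, of which 18 were measured by a probe set of their own. None passed in either direction after adjustment (limma), as against 0.0345% of all probe sets. At an unadjusted p under 0.05 the count was 0 too, where 2.21% of all probe sets passed. The list median was -0.0049 log2 units, beside -0.0034 over all genes, and the range ran from -0.050 to 0.064. Neto1 and Neto2 encode the auxiliary subunits that slow the gating of the channel. Neto1 read 11.67, 11.59, 11.56, 11.59 and 11.72 in Tg and 11.64, 11.77, 11.64, 11.66 and 11.67 in WT, a difference of -0.050 (95% interval -0.15 to 0.050). Its groups overlapped, with WT replicate 2 on top.

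Neto2 read 10.88, 10.41, 10.88, 10.91 and 10.95 log2 units in Tg and 10.81, 10.10, 10.94, 10.88 and 11.00 in WT. It was low on replicate 2 of each group and between 10.81 and 11.00 on the other 8 arrays. The difference was 0.064 (95% interval -0.29 to 0.42) with all arrays, -0.098 (-0.32 to 0.12) without WT replicate 2, and 0.0013 (-0.11 to 0.11) without both second replicates. Klhl24, which encodes a GluK2-binding protein and was chosen after its values were seen, showed the same arrangement. It read 10.95, 10.57, 10.95, 10.87 and 10.93 in Tg and 10.87, 10.40, 11.01, 10.97 and 10.89 in WT.

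The further partners of lowest p were also near 0. Adarb1, the editing enzyme that recodes the pore of GluK1 and GluK2, differed by 0.034 log2 units, and the scaffold genes Dlg1, Cask and Dlg4 by -0.037, -0.037 and -0.017. Kif17, a kinesin motor of dendrites, differed by -0.033, and Pick1, a PDZ protein that binds receptor tails, by -0.019. Without WT replicate 2 the difference of Cask was -0.088 (95% interval -0.19 to 0.010, limma adjusted p = 0.485) and that of Dlg1 -0.071 (-0.17 to 0.031). In that fit 13 of the 18 partners were below 0, as were 46.7% of all genes, with a median of -0.021, beside 0.0060 over all genes. At an unadjusted p under 0.05, which 11% of all probe sets reached, the count was 0.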

How the data were processed

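The authors deposited log2 expression values per probe set. Affymetrix Expression Console 1.1.2 is the software named, per the submitters' processing notes. How it corrected background, normalized and summarised probes is not stated there. The values were used as deposited. Control rows (6612 of 35556) were left out and 28944 probe sets tested, of which 21789 had 1 gene. Symbols were updated through Entrez identifiers (GRCm38.p6).

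Tg and WT were compared with limma 3.58.1 (lmFit and eBayes, no covariates, R 4.3.3). Adjustment was by Benjamini-Hochberg over all probe sets, with a threshold of 0.05 and 95% intervals. Exact permutation tests were two-sided. The step was tested on simulated data for this comparison of 5 and 5 arrays, with 28944 probe sets: it found 90 of 100 with a true change of 0.5 log2 units and 99 of 100 with a change of 1, and made 16 false calls. The simulated noise was normal and independent between probe sets and arrays, with its SD taken from deviations from group means. It held no outlying array such as WT replicate 2, so these counts check the step and do not give the power of the real comparison. Where a gene had several probe sets, the brightest over all arrays was used. The subunits, partner list and marker lists were chosen with earlier results of these data known. Partners named are Neto1, Neto2 and the 6 others of lowest p. Of each marker list the 2 genes farthest from the other WT arrays on WT replicate 2 are named, and of the genes most alike, 3 per subunit. Alternatives covered normalization, filters, the variance model, weights for arrays, a block for the replicate number and arrays left out. Arrays have no read depth, and 5 per group set the precision.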

Additional observations from a re-analysis of the deposited data

Results flagged for a closer look

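In 72 sets of 5 values (the subunits, named partners and named markers, in each genotype), 26 values stood apart from the other 4 of their group by Dixon's criterion, which chance meets in about 1 of 20 groups. Of these, 20 were on WT replicate 2 and 4 on Tg replicate 2. The markers were named for their distance on WT replicate 2, and Klhl24 after its values were seen, so these counts describe the named genes and are no test of that array. All values below are log2 units.

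Among the subunits, Grik2 was low on WT replicate 2 (10.75), and Grik3 (10.42) and Grik5 (11.23) were high. Among the partners, WT replicate 2 was high for Neto1 (11.77) and low for Neto2 (10.10), Cask (11.04) and Klhl24 (10.40). Tg replicate 2 was low for Neto2 (10.41) and Klhl24 (10.57).

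Among the cerebellar markers, WT replicate 2 was low for Gabra6 (6.03), Cbln3 (7.34), Ppp1r17 (5.89) and Car8 (8.59). The interneuron calcium-binding gene Pvalb, which Purkinje cells also express, was low there too (10.35). The pituitary hormone genes Prl and Gh were high on Tg replicate 2 (12.09 and 13.14) and on WT replicate 2 (12.48 and 13.46).

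Among the other markers, WT replicate 2 was high for Cux2 (9.45), Npy (11.50) and the microglial gene Tmem119 (9.03), and low for Rbfox3 (11.61), Stmn2 (12.48) and the astrocyte transporter Slc1a3 (11.58). Npy was high on Tg replicate 3 (11.56) and Stmn2 on Tg replicate 1 (12.77).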

How the results depend on the processing

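No subunit passed under any alternative, and no partner under those run for partners, which leave out the covariate fit; the lowest adjusted p of a subunit was 0.407, for Grik2 without WT replicate 2. With single arrays left out, the difference ranged from -0.128 to 0.00313 for Grik2, from -0.00847 to 0.0421 for Grik3, from -0.098 to 0.163 for Neto2, from -0.0478 to 0.0107 for Pick1 and from -0.0794 to 0.0989 for Klhl24, each with a change of sign. Grik1 (-0.0577 to -0.00089), Grik4 (-0.135 to -0.0522) and Grik5 (-0.0927 to -0.0184) kept theirs. Signs also changed with array weights for Neto2 (-0.0407) and Klhl24 (-0.0386), with quantile normalization for Pick1 (0.00125), and without both second replicates for Pick1 (0.0029) and Klhl24 (-0.00873); the cause was not tested. The covariate fit and the fit without both second replicates were chosen after seeing the data, as were the 2 scalings applied to the deviations of WT replicate 2. With quantile normalization the deviation of Grik3 was 0.238. With each array centred on its median, the deviations were -0.57 for Grik2, 0.182 for Grik4, 0.137 for Grik5, 0.099 for Grik3 and -0.0607 for Grik1, so that Grik1 turned its sign. Same-numbered arrays correlated from -0.472 to 0.453 in their deviations from group means, 2 of 5 matching best, so the numbers were not taken as pairs; with the number as a block, Grik4 differed by -0.105 (adjusted p = 0.999) and 0 subunits passed.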
